A study of Mus musculus with 12 samples.

Results

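The proteasome subunit genes were followed in mouse liver before and after TCPOBOP, in livers with and without hepatocyte YAP. The genes are those whose symbol is Psma, Psmb, Psmc, Psmd or Psme followed by a number and nothing else, among the array's probe sets (groups of probes for 1 transcript) that name a single gene. Of 18193 genes with a probe set of their own, 42 fit this rule, with 88 probe sets between them, and each gene was represented by the probe set with the highest mean log2 signal. Of these, 41 passed the filter on low signals and were tested among 14102 genes. Psma8, an alpha subunit best known from testis, did not pass it, since its signal was above the array median on only 1 of 12 arrays. Psme2 is not among the genes, because its only probe set also names Psme2b.

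The proteasome degrades proteins marked with ubiquitin chains. Its core is a barrel of stacked rings: outer alpha rings, which gate the entrance, and inner beta rings, which hold the cutting sites. A regulatory particle caps the barrel, with a base of ATPases that unfold the substrate and a lid that takes off the ubiquitin chain; other caps, the activators, open the barrel without ATP. The liver turns over much protein, and cells that lose proteasome activity are known to raise subunit transcripts together through the transcription factor NRF1 (Nfe2l1), which binds antioxidant response elements.

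The livers came from female mice of 8 to 12 weeks that were floxed for Yap1 (YAP fl/fl), whose product YAP is the transcriptional co-activator controlled by the Hippo pathway. The knockouts (KO) had received AAV8 with Cre under the hepatocyte promoter TBG, and the controls, called WT here, AAV8 with eGFP under the same promoter, so that every mouse carried the floxed alleles and a virus. Cells other than hepatocytes are not targeted by this promoter. TCPOBOP, which activates the nuclear receptor CAR and makes hepatocytes divide, was given once by gavage at 3 mg/kg, 10 days after the virus, and livers were taken 1 or 2 days later; day 0 mice had the virus and no TCPOBOP. Each genotype had 2 arrays at day 0 and 3 at day 2, and its day 1 RNA was pooled on 1 array. The study asks whether hepatocyte YAP is needed for growth and drug metabolism after CAR activation. No mice without TCPOBOP were sampled after day 0, so the drug cannot be told apart from the gavage or the time. The labels do not say that replicate arrays came from separate mice, so p-values measure the spread between these arrays, which may be partly technical.

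The signals are MAS5 intensities, which the values show to be scaled to a common trimmed mean on each array. The probe set of Yap1 was lower on all 6 KO arrays than on any of the 6 WT arrays (KO minus WT -1.02 log2, exact permutation within days, two-sided, p = 0.00833, the smallest that 240 arrangements allow); its place relative to the floxed exons was not looked up. The brightest probe sets were dimmer on the KO day 2 arrays, whose highest signals were 48217 to 67457, against 103216 or more on each WT day 2 array. No 2 arrays shared more than 0.126% of their values. Hepatocyte markers had a median log2 signal of 14.77 to 15.82 on all arrays, and none of the 9 markers tested read 0. In bulk liver, fewer cells of a type and less RNA per cell cannot be told apart.

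In WT livers, proteasome genes were broadly higher at day 2 than at day 0. Of the 41 genes, 28 rose and none fell (limma, Benjamini-Hochberg adjusted p under 0.05 over all 14102 genes, which is what rose and fell mean below). None fell at an unadjusted p under 0.05 either, where 32 were higher. Of all genes tested, 7.26% rose and 5.38% fell. The median change of the proteasome genes was 0.70 log2, against -0.11 for all genes. In 32 of the 41, every day 2 array lay above both day 0 arrays, which was so for 19.2% of all genes. The core, the base and the lid all took part, while the immunoproteasome subunits and the chaperones of the regulatory particle held no gene that rose. The genes that rose had folds from 1.38 (Psma4) to 3.16 (Psme3). Markers of other liver cells moved beside them in WT. Sinusoidal endothelial markers summed to 7321 to 8603 at day 0 and 4924 to 6065 at day 2, with 2 of 7 falling (Clec4g and Cdh5). Stellate cell markers summed to 10964 to 11732 and 7978 to 8630, with 2 of 7 falling (Lrat and Reln). In KO the endothelial markers summed to 7471 to 9463 at day 0 and 6706 to 7747 at day 2, with none of 7 called. The stellate markers summed there to 10976 to 15935 and 8825 to 9750, with 2 of 7 falling. Their part in the proteasome values was not tested.

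**Figure D1:**
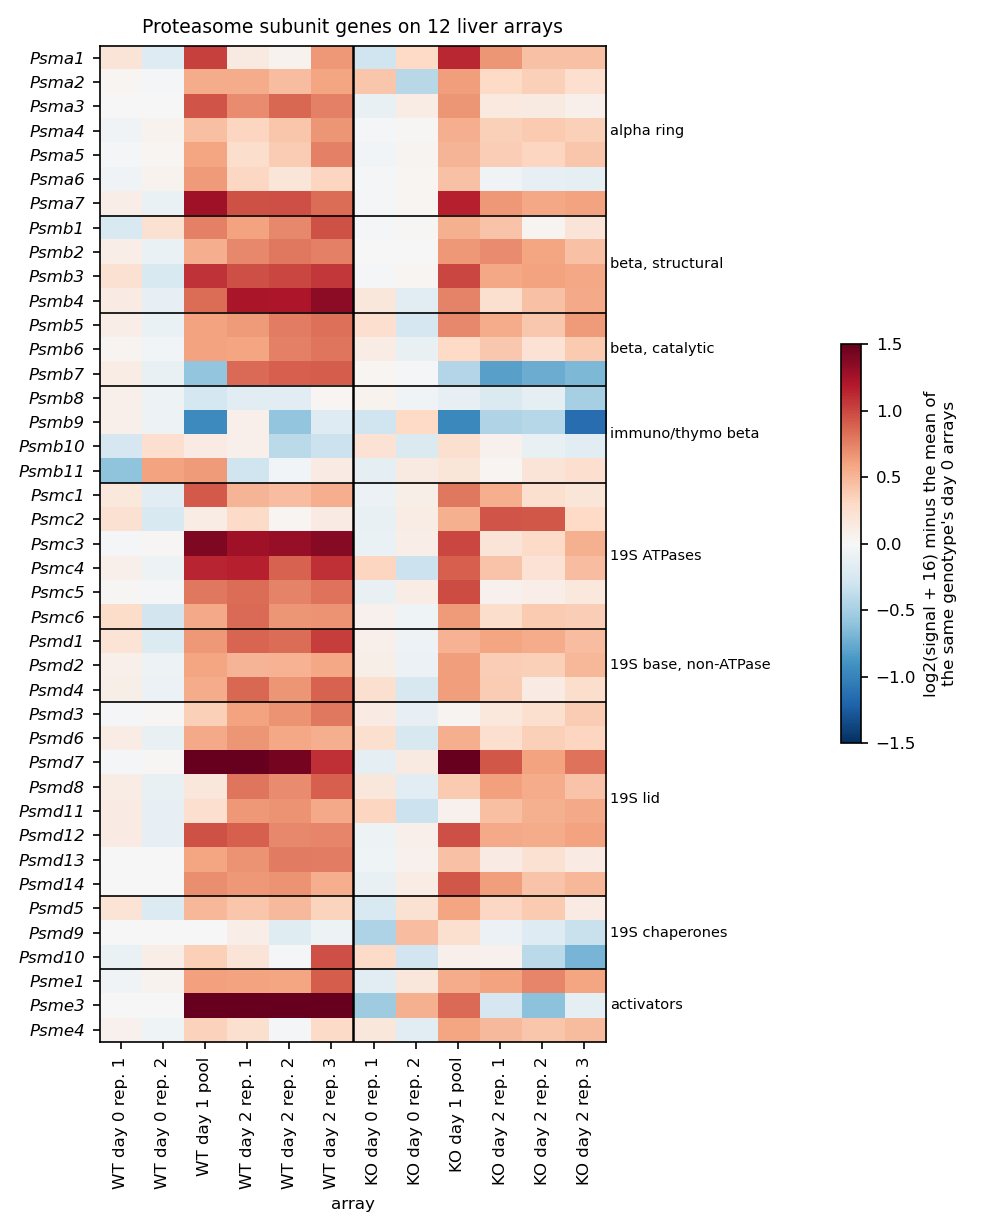
Signal of the 41 tested proteasome genes (rows, grouped by role) on each of the 12 arrays (columns), as log2(signal + 16) minus the mean of the same genotype's 2 day 0 arrays; red is higher and blue lower, and colours stop at 1.5 log2 in both directions. The WT day 2 columns are red in most rows outside the immunoproteasome and chaperone blocks, the KO day 2 columns are paler, and Psmb7 is red at WT day 2 and blue at KO day 2.

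Abundant genes rose more often than faint ones in this comparison, and most proteasome genes are abundant. Of the 988 genes with a mean log2 signal of 11 to 12, 18.8% rose, with a median change of 0.06. The 18 proteasome genes in that range had a median of 0.72, and 13 of them rose. Of the 435 genes at 12 to 13, 24.8% rose, with a median of 0.07, against 8 of 9 proteasome genes with a median of 0.75.

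The alpha ring rose in part. Of its 7 tested genes 3 rose in WT (Psma3, Psma4 and Psma7), with a median of 0.47 over the ring. Psma7, one of the ring's subunits, had signals of 2498.6 and 2163.3 at day 0 and of 4518, 4548.2 and 4165.4 at day 2, a change of 0.92 ± 0.12 (± is limma's standard error throughout, with n = 2 arrays at day 0 and n = 3 at day 2; adjusted p = 0.000317). Its WT groups did not overlap, and the lowest day 2 array was far above the higher day 0 array. Psma3 read 4081.9 and 4065.3 at day 0 and 6690.1, 7407.9 and 6900.4 at day 2 (0.78 ± 0.12, adjusted p = 0.000945). With the mean of its 2 probe sets, of which the second is faint, the change was 0.12 (adjusted p = 0.84). Psma5 read 3051.4 and 3168.1 at day 0 and 3740.9, 4041.3 and 5275.9 at day 2. All its day 2 arrays were the higher ones, but they spread widely, and the change of 0.47 ± 0.14 did not pass the test (adjusted p = 0.0556). Another bright probe set of Psma5 spread less, at 2262.2 and 2236.5, then 3632.9, 3812.9 and 3398.6. Psma1, Psma2 and Psma6 had changes of 0.28, 0.54 and 0.27 that did not pass either.

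All 4 structural subunits of the beta ring rose in WT. Psmb4, which takes part in assembling the ring, read 5479.2 and 4641.9 at day 0 and 11772.2, 11756.5 and 12767.2 at day 2 (1.26 ± 0.14, adjusted p = 0.000164). The day 2 arrays lay close together and more than doubled the higher day 0 array. Psmb3 read 2118.4 and 1545 at day 0 and 3539.1, 3630.5 and 3803.4 at day 2 (1.01 ± 0.14, adjusted p = 0.00053). Psmb2 read 3475 and 3035, then 5348.4, 5632.1 and 5492.2 (0.75 ± 0.12, adjusted p = 0.00168). In both, the day 0 arrays differed more from each other than the day 2 arrays did. Psmb1 rose by 0.76 ± 0.17, and without WT day 0 replicate 1 this was no longer called (adjusted p = 0.148).

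The 3 constitutive catalytic subunits rose as well. Psmb6, which carries the caspase-like site, read 3392.4 and 3215.8 at day 0 and 4980.8, 5597.4 and 5752.5 at day 2 (0.72 ± 0.13, adjusted p = 0.00315). Psmb7, with the trypsin-like site, read 8035 and 6863.8 at day 0 and 13428.4, 13824.2 and 13921.5 at day 2 (0.88 ± 0.11, adjusted p = 0.000384). Psmb5, with the chymotrypsin-like site, read 5100.2 and 4444.7 at day 0 and 7441.1, 8115.1 and 8462.7 at day 2 (0.75 ± 0.16, adjusted p = 0.00819). In each of the 3 genes the WT groups were separate. The call of Psmb5 was lost without WT day 0 replicate 2 (adjusted p = 0.0946).

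Their immunoproteasome counterparts, which replace them in immune cells or after interferon and change which peptides are cut for display on MHC class I, behaved otherwise. Psmb9, the counterpart of Psmb6, read 958.9 and 862 at WT day 0 and 962, 597.2 and 792.2 at day 2 (-0.24 ± 0.27, adjusted p = 0.625). Psmb10, the counterpart of Psmb7, read 936.2 and 1329.1, then 1176.8, 836 and 891 (-0.22 ± 0.20, adjusted p = 0.542). Psmb8, the counterpart of Psmb5, read 1088.4 and 974.4, then 911.9, 914.7 and 1055.4 (-0.10 ± 0.16, adjusted p = 0.726). The WT groups overlapped in all 3 genes, and these were the lowest changes of the 41. The 95% interval reached up to 0.36 for Psmb9, 0.23 for Psmb10 and 0.25 for Psmb8, below the change of 0.72 or more seen in each constitutive partner. Psmb11, the catalytic subunit of thymus cortex, gave faint and scattered signals, from 159.5 to 400.1 over the 12 arrays. Of these 4 genes none passed the test in any comparison of this study; at an unadjusted p under 0.05 the count was 1, Psmb9, lower in KO at day 2 than at day 0.

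In KO, Psmb9 read 760.6 and 1161 at day 0 and 681.8, 696.4 and 418.1 at day 2 (-0.67 ± 0.27, adjusted p = 0.164). Psmb10 read 1448.8 and 1067.1, then 1301.4, 1146.8 and 1100.3 (-0.07 ± 0.20, adjusted p = 0.883). Psmb8 read 1017.1 and 949.8, then 841.5, 891.2 and 688.9 (-0.29 ± 0.16, adjusted p = 0.318). The KO day 2 arrays of Psmb8 and Psmb9 all lay below day 0, while those of Psmb10 overlapped with it. Markers of lymphocytes, which carry these subunits, had a summed signal of 5697 to 6584 on the KO day 2 arrays, 3915 to 4881 at KO day 0, 4007 to 5268 at WT day 2 and 5137 to 5243 at WT day 0. Of the 9 lymphocyte markers tested, 1 rose in KO (Cd8a) and 1 fell in WT (Ms4a1). Markers of Kupffer cells and macrophages, which can carry them too, summed to 17687 to 17932 at KO day 0 and 11988 to 16864 at KO day 2, with 2 of 12 falling (Clec4f and C1qb), and to 19342 to 19973 and 16404 to 17665 in WT, with 1 falling (C1qb). Dendritic markers summed to 7189 to 8321 at KO day 0 and 5774 to 7091 at KO day 2, with none of 7 called, and to 7908 to 8490 and 6165 to 8098 in WT, with 1 falling (H2-Aa). None of these markers read 0 on any array, and their part in the immunoproteasome values was not tested. Of 15 interferon-stimulated genes tested, 1 rose and 1 fell in WT, and likewise 1 and 1 in KO.

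**Figure D2:**
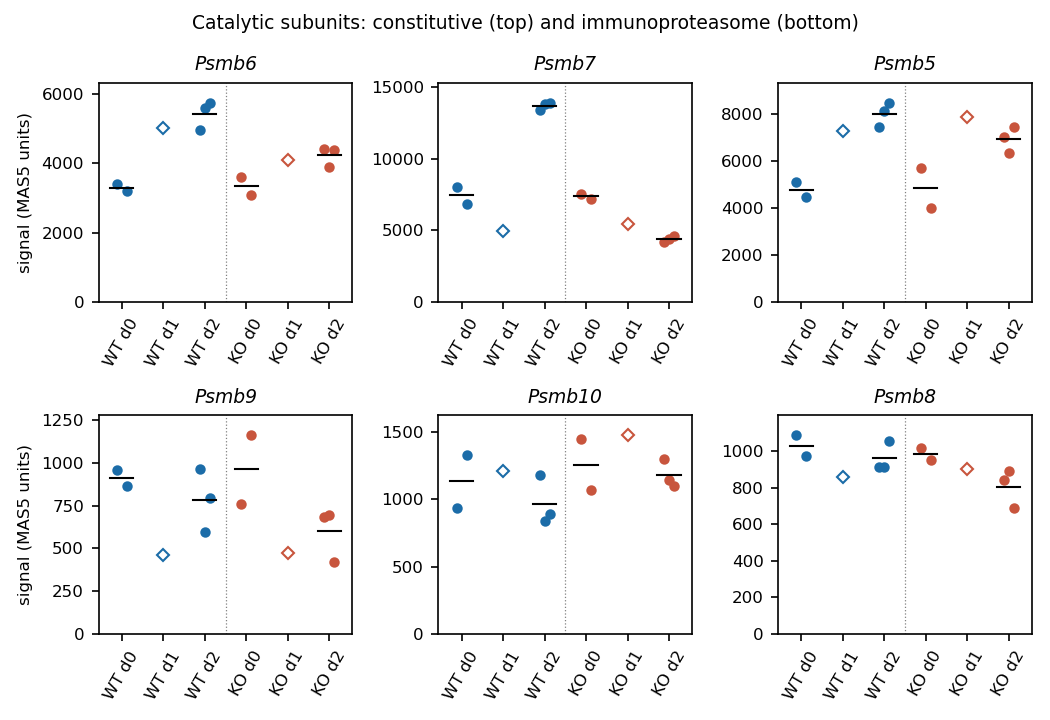
Signal (MAS5 units, linear axes from 0) of the catalytic subunits by group: Psmb6, Psmb7 and Psmb5 above, and their immunoproteasome counterparts Psmb9, Psmb10 and Psmb8 below. Filled points are arrays, bars are group means and open diamonds are the day 1 pools (1 array each); the constitutive genes are separate between WT day 0 and day 2, and the WT values of the counterparts overlap.

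In the base of the regulatory particle, 5 of the 6 ATPases and all 3 of the other subunits rose in WT. The ATPase Psmc3 read 1735.7 and 1770.4 at day 0 and 4268.4, 4363.6 and 4529.6 at day 2 (1.32 ± 0.13, adjusted p = 6.1e-05). Psmc4 read 1334 and 1191.5, then 2852.5, 2346.4 and 2711.2 (1.05 ± 0.18, adjusted p = 0.00292). Psmc5 read 1659.8 and 1624.6, then 2953.1, 2766.9 and 2911.6 (0.80 ± 0.12, adjusted p = 0.000877). In these 3 ATPases the gap between the days was larger than the spread within either day. Psmc1 read 1310.3 and 1049.7, then 1676.3, 1622.4 and 1714 (0.50 ± 0.15, adjusted p = 0.0492). This call was lost when any 1 of the 5 WT arrays was left out, with adjusted p from 0.064 to 0.344. Psmc2 was the ATPase that did not pass, at 4243.6 and 3062.3, then 4389.9, 3678.6 and 3933.7 (0.15 ± 0.20, adjusted p = 0.694), with overlapping groups. Another of its probe sets, nearly as bright, read 3129.5 and 2897.9, then 4189.8, 3990.9 and 3887.8, with separate groups.

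Among the other base subunits, Psmd1, a scaffold, read 2465.3 and 1864.4 at day 0 and 3933.9, 3830.6 and 4406 at day 2 (0.91 ± 0.14, adjusted p = 0.00127). Psmd4, a receptor for ubiquitin chains, read 2477.3 and 2207.9, then 4264.2, 3715.5 and 4341.6 (0.80 ± 0.16, adjusted p = 0.00555). Both had separate groups; the call of Psmd4 was lost without WT day 0 replicate 2 (adjusted p = 0.0682). Psmd2, the other scaffold, rose by 0.54 ± 0.12, a call also lost without that array (adjusted p = 0.109), as was that of the ATPase Psmc6 (0.73 ± 0.16, adjusted p = 0.134 without it).

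All 8 lid subunits rose in WT, by 0.60 to 1.34. Psmd7, which pairs with the deubiquitinase Psmd14, read 385.2 and 396.2 at day 0 and 1134.1, 1085.3 and 852.8 at day 2 (1.34 ± 0.18, adjusted p = 0.000555). Psmd14, which cuts the ubiquitin chain off the substrate, read 1913.6 and 1905.6, then 2996.1, 3067 and 2802.4 (0.62 ± 0.12, adjusted p = 0.0059). In both genes the day 0 arrays were nearly equal and every day 2 array was higher. Psmd8 read 3606.2 and 3067.2, then 5834.4, 5454.1 and 6209.2 (0.81 ± 0.14, adjusted p = 0.00257). Psmd12 read 1943.3 and 1637.5, then 3330.4, 2945.6 and 2977.6 (0.78 ± 0.13, adjusted p = 0.00162). Psmd3, Psmd6, Psmd11 and Psmd13 rose by 0.69, 0.60, 0.64 and 0.74. The call of Psmd11 was lost without any 1 of the 5 WT arrays and that of Psmd6 without 4 of them. The probe sets of Psmd13 disagreed: 1 of its other 3 fell (-1.45 ± 0.31, adjusted p = 0.0105), and the mean of all 4 gave -0.11 (adjusted p = 0.706).

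The 3 chaperones that help assemble the base and then leave it did not pass the test in WT: Psmd5 had a change of 0.41 ± 0.17, Psmd9 of -0.05 ± 0.23 and Psmd10 of 0.38 ± 0.39. At an unadjusted p under 0.05 the count was 1 of 3 (Psmd5), and a second probe set of Psmd9 rose (adjusted p = 0.0272). Of the activators, Psme3, the nuclear one, read 219.1 and 215.4 at day 0 and 673.3, 657.4 and 843.2 at day 2 (1.66 ± 0.31, adjusted p = 0.00432), the largest change of the 41. Psme1, induced by interferon elsewhere, read 2417.4 and 2602.5, then 3834.5, 3789 and 4739.2 (0.70 ± 0.14, adjusted p = 0.00756; 0.0769 without WT day 0 replicate 1). Both had separate groups. Psme4, a large activator of the nucleus, had a change of 0.17 ± 0.14 that did not pass. The probe set shared by Psme2 and Psme2b read 1565 and 1197 at WT day 0, 1567.6, 3020.8 and 2031.8 at WT day 2, 1367.7 and 1966.4 at KO day 0 and 2234.7, 1727.1 and 1676.7 at KO day 2, with overlap in KO and separate but widely spread groups in WT.

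The promoters of genes that moved together can be compared by their letters. Of the 41 tested genes 35 matched the RefSeq promoter table (GRCm38.p6); Psmb1, Psmb2, Psmb7, Psmc3, Psmd3 and Psmd7 did not. The 250 bases before the start were searched on both strands for TGACNNNGC, the core of the antioxidant response element. Each gene was counted once, by the first promoter listed for it. This core stood in 5 of the 35 (14.3%) and in 10.1% of all 27025 promoters so chosen. Among the genes that rose in WT it stood in 4 of 22 (18.2%), and among the others in 1 of 13 (7.69%). The 5 windows are printed because this element is the one through which proteasome genes are known to be raised together; capitals mark the match, in which Psmc6 and Psmd12 hold the reverse complement.
Psmb5 (chr14:54618014-54618062, minus strand): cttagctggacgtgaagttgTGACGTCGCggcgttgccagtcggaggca
Psmb6 (chr11:70525328-70525356, plus strand): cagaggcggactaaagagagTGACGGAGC
Psmc6 (chr14:45329577-45329625, plus strand): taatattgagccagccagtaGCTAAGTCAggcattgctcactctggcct
Psmd12 (chr11:107479278-107479309, plus strand): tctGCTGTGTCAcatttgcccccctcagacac
Psmd9 (chr5:123228139-123228187, plus strand): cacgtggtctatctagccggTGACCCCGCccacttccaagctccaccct
Psmb5, Psmb6, Psmc6 and Psmd12 rose in WT, and Psmd9 did not pass the test. These are matches of letters and not shown to be sites. The NF-Y box CCAAT stood in 14 of the 35 (40.0%) and in 34.5% of all promoters; it stood in 31.8% of the genes that rose in WT and in 53.8% of the others. For the other motifs the counts were small: the heat shock element core GAANNTTC stood in 2 (5.71%) and in 6.78% of all promoters, and the interferon-stimulated response element core GAAANNGAA in 3 (8.57%) and in 7.16%. The last was found in Psmb3, Psmd4 and Psmd9, and in none of the immunoproteasome genes Psmb8, Psmb9 and Psmb10 within this window.

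At day 1, the pooled RNA of both genotypes already had high proteasome signals. The WT pool lay above the mean of the WT day 0 arrays in 38 of the 41 genes, by a median of 0.60 log2, and the KO pool above its own day 0 in 38, by a median of 0.59, against -0.07 and -0.05 for all genes. Of all genes 44.6% lay above day 0 in the WT pool and 45.9% in the KO pool. Genes of like abundance were not compared at this time. The KO pool was 0.04 above the WT pool in the median. Differences of at least 1 log2 were seen for 7 genes in WT, where 6.35% of all genes reached that size, and for 4 in KO, where 6.11% did. Psmd7 had the highest difference in both, at 1332.4 in the WT pool (1.73) and 1464.6 in the KO pool (1.82). Psme3 read 669 in the WT pool and 647.6 in the KO pool. With 1 pool per genotype these differences have no replicate check.

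The 3 genes below day 0 at day 1 were the same in both genotypes: Psmb7, Psmb8 and Psmb9. Psmb7 read 4937 in the WT pool and 5407.9 in the KO pool, below all 4 day 0 arrays, with differences of -0.59 and -0.44. Psmb9 read 462.8 and 474.4, with differences of -0.95 and -0.96, and Psmb8 858.3 and 902.5. The other constitutive catalytic subunits were above day 0 at that time, at 5028 (WT) and 4091.3 (KO) for Psmb6 and 7256.1 and 7866.8 for Psmb5.

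In KO livers fewer proteasome genes passed the test from day 0 to day 2. Of the 41, 10 rose and 1 fell, Psmb7; of all genes 4.2% rose and 4.49% fell. The median change was 0.34, against 0.05 for all genes. At an unadjusted p under 0.05, 20 were higher and 2 lower. At log2 11 to 12, 7 of the 18 proteasome genes rose, against 8.6% of all genes there, with medians of 0.43 and -0.05. At 12 to 13, 2 of the 9 rose, against 12.4% of all genes there, with medians of 0.37 and -0.13. All KO day 2 arrays lay above day 0 in 26 of the 41, which was so for 22.6% of all genes. After quantile normalization, which gives all arrays 1 distribution, 17 rose and 1 fell, with a median of 0.42. Of all genes 4.74% then rose and 4.54% fell. With each array centred on its median only 3 rose, and 2.93% of all genes did. Without 1 array the number that rose ran from 4 (without KO day 2 replicate 1) to 11, with 5 without KO day 2 replicate 2 and 5 without KO day 2 replicate 3. Hepatocyte markers moved beside these values: 6 of 9 fell in KO, with a summed signal of 235457 to 299796 on the KO day 2 arrays and 388706 to 465539 at KO day 0. In WT 2 rose and 1 fell, with 386444 to 442511 at day 2 and 341030 to 344898 at day 0. These sums rest on very bright genes. The 9 markers had a median change of -0.72 in KO and 0.21 in WT. All 152 genes over log2 14 had -0.42 and 0.16. The part of the hepatocyte markers in the proteasome values was not tested.

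The genes that rose in KO came from most parts of the particle, with 4 of the 8 lid genes and 2 of the 4 structural beta genes among them. Psma7 read 2393.2 and 2477.5 at KO day 0 and 3823.9, 3658.9 and 3722.2 at day 2 (0.61 ± 0.12, adjusted p = 0.00613). Psmd7 read 366.1 and 445.4, then 785.9, 621.7 and 721.2 (0.78 ± 0.18, adjusted p = 0.0215). Psme1 read 2300.6 and 2914.9, then 3946.7, 4317.5 and 3916.4 (0.64 ± 0.14, adjusted p = 0.0167). In all 3 genes the groups were separate. Psmb2 read 3331.4 and 3279.3, then 5403.3, 4971.3 and 4489.6 (0.58 ± 0.12, adjusted p = 0.0117). Psmb3 read 2230.1 and 2334.6, then 3411.8, 3471.8 and 3422.8 (0.59 ± 0.14, adjusted p = 0.0209). Psmd12 read 1766 and 1964.3, then 2779.8, 2740.8 and 2832.7 (0.58 ± 0.13, adjusted p = 0.014). Psmb3 and Psmd12 were tight at day 2, while Psmb2 spread more there than at day 0.

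Psmd14 read 1678.1 and 1959.7 at KO day 0 and 2799.7, 2444.3 and 2569.4 at day 2, a change of 0.52 ± 0.12 (adjusted p = 0.0226). Psmd1 read 2523.2 and 2255.5, then 3592.6, 3510.6 and 3286.9 (0.53 ± 0.14, adjusted p = 0.0361). Psmd8 read 3540.5 and 2809.1, then 4820.5, 4653.1 and 4245.4 (0.53 ± 0.14, adjusted p = 0.0331). Each of the 3 had separate groups. Psmc2 read 2601.5 and 3045.9, then 5426.6, 5368.6 and 3479.8 (0.72 ± 0.20, adjusted p = 0.0484). KO day 2 replicate 3 stood well below the other day 2 arrays. The other bright probe set of Psmc2 read 3784.7 and 2307.6, then 3916, 3397.1 and 3612.7, with overlap. With the mean of its kept probe sets Psmc2 lost its call (0.30, adjusted p = 0.259). Of the 10 genes, Psma7 and Psmb2 kept the call whichever KO array was left out; Psmb3, Psmc2, Psmd1, Psmd7, Psmd8, Psmd12, Psmd14 and Psme1 lost it without at least 1.

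The catalytic genes Psmb5 and Psmb6, the alpha ring gene Psma5 and the base genes Psmc1, Psmc4 and Psmd4 did not pass in KO. Psmb5 read 5671.4 and 3998.4 at KO day 0 and 6992.9, 6309.1 and 7434.1 at day 2 (0.53 ± 0.16, adjusted p = 0.0561). Psmb6 read 3613.3 and 3077, then 4423.2, 3892.9 and 4387.9 (0.34 ± 0.13, adjusted p = 0.131). In both, all day 2 arrays were above day 0. Psma5 read 3117.9 and 3285.5, then 4151.8, 4004.7 and 4260.5 (0.37 ± 0.14, adjusted p = 0.151). Its other bright probe set read 2007.8 and 2239, then 3801.3, 3435.7 and 3261.5. Psmc1 read 1241.1 and 1409.9, then 1930.3, 1560.6 and 1502.8 (0.32 ± 0.15, adjusted p = 0.239). These groups were separate too, with a small gap for Psmc1. Psmc4 read 1931.3 and 1220.2, then 2076.7, 1784 and 2122.7 (0.37 ± 0.18, adjusted p = 0.262). Psmd4 read 2918.5 and 2096.9, then 3222, 2685.6 and 2984.6 (0.26 ± 0.16, adjusted p = 0.374). In these last genes the groups overlapped, since KO day 0 replicate 1 was high. After Psmb7 and Psmb9, the lowest change was that of the chaperone Psmd10 (-0.35 ± 0.39).

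Of the 28 genes that rose in WT 9 also rose in KO (32.1% of the WT genes and 90% of the 10 KO genes), Psmc2 being the exception. The exception rests on the chosen probe set, since another of Psmc2 had separate groups in WT and overlapping ones in KO. The change was larger in WT than in KO for 36 of the 41, while 57.3% of all genes had the higher change in KO. After quantile normalization it was larger in WT for 27 of the 41. For 32 the mean was higher at day 2 in both genotypes, and for 4 it was higher in WT and lower in KO: Psma6, Psmb7, Psmd10 and Psme3. Another probe set of Psma6, about as bright, went up in KO, from 2415.3 and 2667.9 to 3078.7, 2935 and 2666.8, with overlap. A gene that passed in one genotype and not in the other is not thereby shown to differ between them; the test of that difference follows.

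**Figure D3:**
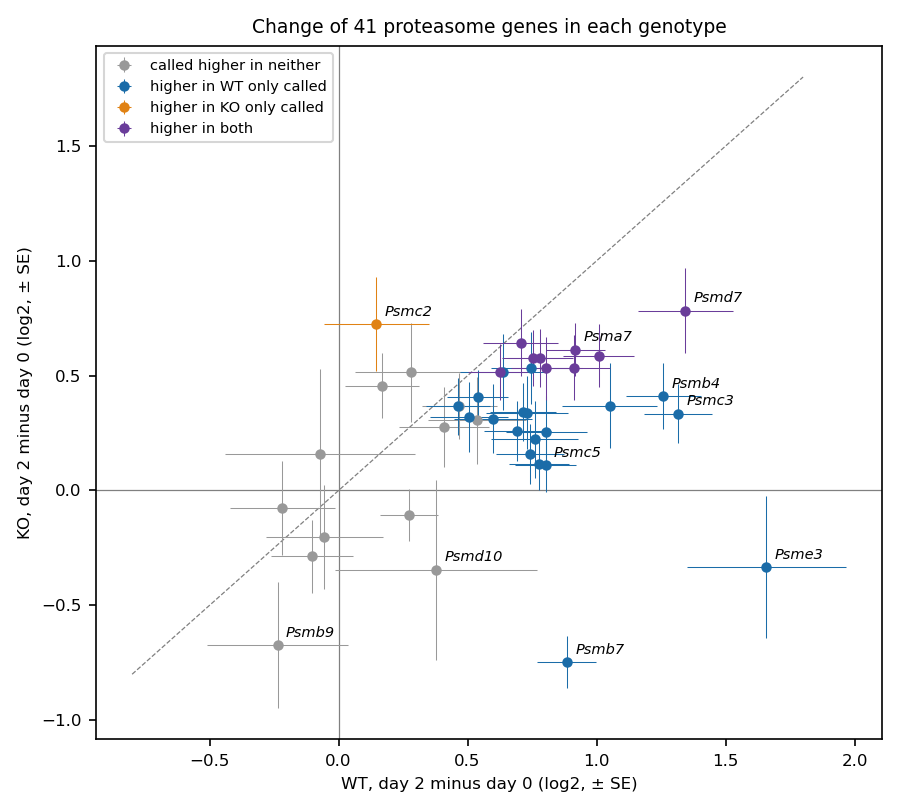
Change from day 0 to day 2 of the 41 tested proteasome genes in WT (horizontal) and KO (vertical), as log2 differences with bars of 1 standard error; colours give the genes called higher in both genotypes, in WT, in KO or in neither, and the dashed line marks equal changes. Of the 41 points 36 lie below the line, with Psmb7 and Psme3 farthest from it and Psmc2 above it. Of all genes tested, 57.3% had the higher change in KO.

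The change differed between the genotypes for 5 genes: Psmb7, Psme3, Psmc3, Psmb4 and Psmc5, all with the smaller or opposite change in KO. None differed in the other direction, with 0 also at an unadjusted p under 0.05, where 12 were lower. Of all genes 1.08% had a higher and 2.06% a lower change in KO. The median of the 41 was -0.28, against 0.11 for all genes. At log2 11 to 12 it was -0.29 for the 18 proteasome genes and -0.12 for all 988 genes, at 12 to 13 it was -0.27 for the 9 and -0.20 for all 435, and at 13 to 14 it was -0.12 for Psmd11 and -0.37 for all genes. The highest differences, which did not pass, were those of Psmc2 (0.58), Psme4 (0.29) and Psma1 (0.23). After quantile normalization 2 of the 5 passed, Psmb7 and Psme3, and the median was -0.12. Of all genes 1.13% then had a lower change in KO. The count was between 1 and 5 when single arrays were left out; it was 1 without WT day 0 replicate 1, without WT day 0 replicate 2 or without KO day 2 replicate 2, and 2 without any of the 3 WT day 2 arrays, KO day 2 replicate 1 or KO day 2 replicate 3.

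Psmb7 moved in opposite directions. In KO it read 7531.2 and 7204.7 at day 0 and 4177.3, 4375.3 and 4610.3 at day 2, a fall of -0.75 ± 0.11 (adjusted p = 0.00184). The KO day 2 arrays lay below every day 0 array of either genotype and below both day 1 pools, whereas the WT day 2 arrays lay above all others. The difference between the changes was -1.63 ± 0.16 (adjusted p = 0.0058), and stayed between -1.74 and -1.52 with adjusted p up to 0.0236 when any array was left out. After quantile normalization it was -1.26 ± 0.15 (adjusted p = 0.0101). At day 2 the KO signal was 3.12-fold lower than that of WT. The gene has a single probe set, so no other measures it here.

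Psme3 in KO read 238.9 and 516.9 at day 0 and 292.6, 224.8 and 320.9 at day 2, with overlapping groups. The 2 KO day 0 arrays differed by more than the whole range of the KO day 2 arrays. The difference between the changes was -1.99 ± 0.44 (adjusted p = 0.0352), and lost its call when any of 9 of the 10 arrays was left out (adjusted p up to 0.108), all but KO day 0 replicate 1. Its other tested probe set gave -1.80 ± 0.52 (adjusted p = 0.0879).

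Psmc3 in KO read 2161.3 and 2473.5 at day 0 and 2648.2, 2814.3 and 3342.1 at day 2 (difference between the changes -0.98 ± 0.18, adjusted p = 0.0217). All KO day 2 arrays were above day 0, but by less than in WT. The call was lost without WT day 0 replicate 1, WT day 0 replicate 2 or KO day 2 replicate 2 (adjusted p up to 0.0813). Psmc5 in KO read 1760.4 and 2041.3, then 1989.6, 2037.3 and 2113.7 (-0.69 ± 0.17, adjusted p = 0.0464), with overlap. Psmb4 in KO read 5876.8 and 4653.3, then 6173.8, 7073.1 and 7732.1 (-0.85 ± 0.20, adjusted p = 0.0475), without overlap. The calls of Psmc5 and Psmb4 were lost without any of 9 of the 10 arrays, all but KO day 0 replicate 1 for Psmc5 and all but KO day 0 replicate 2 for Psmb4. The second probe set of Psmb4 disagreed with the first: it rose in WT (0.88 ± 0.20, adjusted p = 0.0137) and in KO (0.96 ± 0.20, adjusted p = 0.0123), and its difference between the changes was 0.07 ± 0.28.

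**Figure D4:**
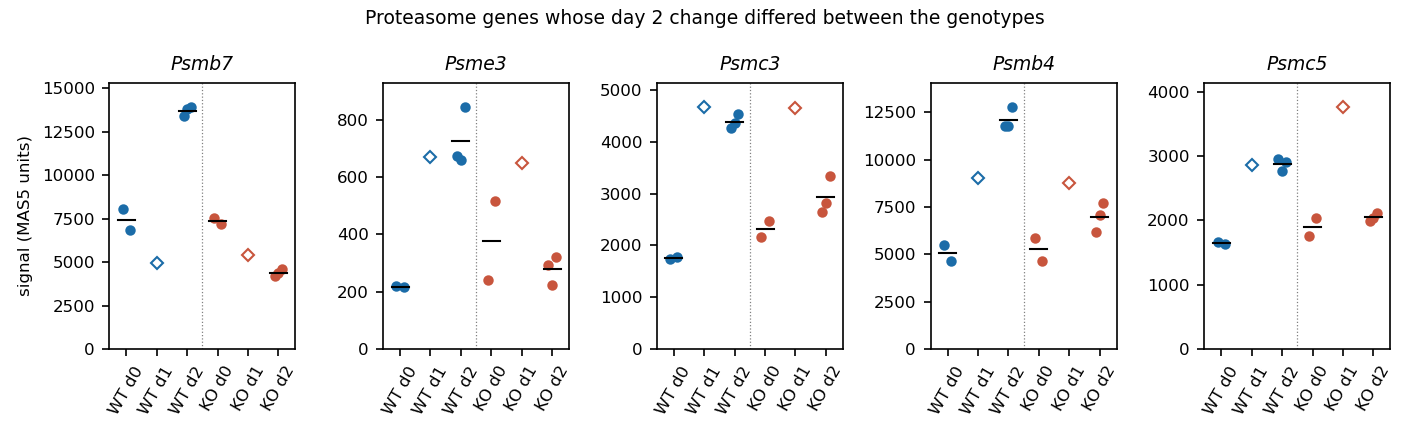
Signal (MAS5 units, linear axes from 0) by group of the 5 genes whose change from day 0 to day 2 differed between the genotypes; filled points are arrays, bars group means and open diamonds the day 1 pools (1 array each). Psmb7 at KO day 2 lies at 4177 to 4610 against 13428 to 13922 at WT day 2, and the KO day 2 points of the other 4 genes lie below those of WT.

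Comparing the genotypes at day 2 directly, 6 proteasome genes were lower in KO and none higher (1 was higher at an unadjusted p under 0.05, Psma1, and 17 lower); of all genes 5.23% were lower and 3.99% higher. The 6 were Psmb7 (-1.64 ± 0.10, adjusted p = 1.88e-05), Psme3 (-1.33 ± 0.28, adjusted p = 0.0151), Psmb4 (-0.79 ± 0.13, adjusted p = 0.00566), Psmc3 (-0.58 ± 0.12, adjusted p = 0.0128), Psmc5 (-0.49 ± 0.10, adjusted p = 0.017) and Psma3 (-0.40 ± 0.10, adjusted p = 0.0337). Psma3 read 5403.9, 5350.5 and 5146.5 on the KO day 2 arrays, below all 3 WT day 2 arrays, and 4525.8 and 5281.2 at KO day 0. In 24 of the 41 every KO array lay below every WT array, which was so for 16.1% of all genes. The median of the 41 was -0.24, against 0.09 for all genes, but abundant genes in general were lower in KO. At log2 11 to 12 the 18 proteasome genes had a median of -0.16, close to the -0.14 of all 988 genes there. At 12 to 13 the 9 proteasome genes had -0.35 and all genes -0.19, and at 13 to 14 the 1 proteasome gene, Psmd11, had -0.05 and all genes -0.28. The highest values were those of Psma1 (0.48), Psmb11 (0.38) and Psmb10 (0.30), none of which passed; Psma1 and Psmb11 had every KO array above WT. After Psmb7 and Psme3, Psmd10 had the lowest value (-0.89 ± 0.35, adjusted p = 0.124) and did not pass.

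The scaling of the arrays moved this comparison. After quantile normalization 3 of the 6 were lower, Psmb7 (-1.36 ± 0.10), Psme3 (-1.45 ± 0.27) and Psmb4 (-0.50 ± 0.10), 17 of the 41 genes lay above 0 in KO in place of 5, and the median was -0.05. Of all genes 3.86% were then lower and their median was 0.05. With arrays centred on their medians 12 of the 41 were lower and the median was -0.41, while 9.69% of all genes were lower and their median was -0.08. Psmb4's second probe set went the other way: it read 1483.1, 1896.5 and 1859.8 at WT day 2 and 2450.8, 2258.8 and 2192.4 at KO day 2 (0.40 ± 0.18, adjusted p = 0.175). Every KO array was the higher there, and with the mean of both probe sets Psmb4 lost its call (-0.20, adjusted p = 0.244). With the chosen probe sets, Psmb7 and Psmb4 kept the call whichever array was left out; Psma3 lost it without any of the 6, Psmc5 without WT day 2 replicate 1 or 3 or KO day 2 replicate 1 or 2, Psmc3 without KO day 2 replicate 1 or 2, and Psme3 without WT day 2 replicate 3 or KO day 2 replicate 2. The number of calls was 2 without KO day 2 replicate 2, and 3 without KO day 2 replicate 1 or WT day 2 replicate 3. Of all genes 2.13%, 3.16% and 2.51% were lower then, in that order.

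**Figure D5:**
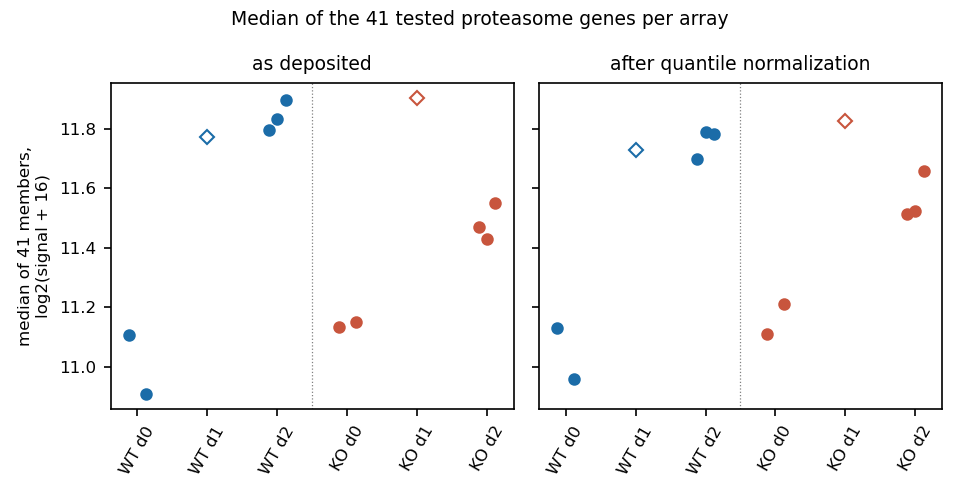
Median log2(signal + 16) of the 41 tested proteasome genes on each array, as deposited (left) and after quantile normalization (right); points are arrays and open diamonds day 1 pools. As deposited the WT day 2 arrays lie at 11.80 to 11.89 and the KO day 2 arrays at 11.43 to 11.55, and after normalization at 11.70 to 11.79 and 11.51 to 11.66; both lie above their own day 0 arrays in either panel.

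Before TCPOBOP the genotypes did not differ in any proteasome gene by limma's adjusted p; 3 were higher and none lower in KO at an unadjusted p under 0.05. Of all genes 0.0638% were higher and 0.106% lower. The median difference of the 41 was 0.06, with the highest values at Psme3 (0.66 ± 0.34), Psmc3 (0.40 ± 0.14) and Psmb3 (0.33 ± 0.15) and the lowest at Psmc2 (-0.36 ± 0.22), Psmd10 (-0.17 ± 0.43) and Psme4 (-0.15 ± 0.16). Psmb7 differed by -0.01 ± 0.13, with a 95% interval from -0.29 to 0.26. With 2 arrays in each group even 2-fold differences may not be detectable, since on simulated data this comparison missed most of those planted.

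The remaining genes around the proteasome moved in part with it. Of 15 tested assembly and accessory genes 5 rose in WT and 1 fell. Uchl5, a deubiquitinase that docks on the particle, read 491.1 and 537.6 at WT day 0 and 1208.3, 1198.9 and 1015.2 at day 2 (1.12 ± 0.17, adjusted p = 0.000931). In KO it read 628.8 and 713.9, then 586.6, 561.5 and 700.4, so that its change differed between the genotypes (-1.25 ± 0.23, adjusted p = 0.0217; -1.35 after quantile normalization). Sem1, a small lid subunit, rose by 0.79 ± 0.18, Psmg1, an assembly chaperone of the alpha ring, by 0.73 ± 0.13, and Pomp, which matures the beta ring, by 0.64 ± 0.13 (adjusted p = 0.00626). Zfand5, which stimulates the particle, fell (-0.75 ± 0.17). Psmf1, an inhibitor of the core, had changes of 0.30 ± 0.15 in WT and -0.05 ± 0.15 in KO and passed in no comparison. In KO 1 of the 15 rose, the assembly chaperone Psmg4 (0.56 ± 0.14), and Pomp had a change of 0.35 ± 0.13 (adjusted p = 0.127).

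Of 10 tested genes for ubiquitin and the delivery of substrates, 2 rose in WT: Vcp, the ATPase that pulls ubiquitinated proteins out of complexes (0.72 ± 0.13), and its cofactor Nploc4 (0.78 ± 0.15). In KO 1 rose, the Vcp cofactor Nsfl1c (0.49 ± 0.14). None of 9 regulators of proteasome transcription rose or fell in WT or KO by limma's adjusted p; at an unadjusted p under 0.05, 2 were higher and 1 lower in WT, and 1 was higher in KO. Nfe2l1 itself read 1328.1 and 921.2 at WT day 0 and 1853.4, 1598.5 and 1591.6 at day 2 (0.59 ± 0.18, adjusted p = 0.0565), with separate groups. In KO it read 1124.4 and 1185.5, then 1584.3, 1296.9 and 1830.5 (0.42 ± 0.18, adjusted p = 0.196). Nfe2l2, which codes for the related factor NRF2, had changes of 0.34 ± 0.13 in WT (adjusted p = 0.116) and 0.24 ± 0.13 in KO (adjusted p = 0.296). Nfyc, a subunit of NF-Y, was lower in KO than in WT at day 2 (-0.76 ± 0.18, adjusted p = 0.0276).

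Downstream of peptide cutting, 2 of 9 genes of antigen processing rose in WT, the chaperones Pdia3 (0.47 ± 0.13) and Calr (0.45 ± 0.12), and 3 fell in KO, the MHC class I chains H2-K1 (-0.80 ± 0.15), H2-D1 (-0.55 ± 0.12) and B2m (-0.77 ± 0.11). B2m read 47797.9 and 46361.5 at KO day 0 and 26760.1, 27765.3 and 28076.8 at KO day 2. These are among the brightest signals, where the KO day 2 arrays reached lower maxima: the difference of B2m between the changes was -0.82 ± 0.16 as deposited (adjusted p = 0.0221) and -0.07 ± 0.12 after quantile normalization (adjusted p = 0.781).

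The 34 other tested probe sets of 21 of the proteasome genes, left out above, were fitted among 23038 probe sets. In WT 8 of them rose and 1 fell, with a median of 0.43 and 27 above 0; of all probe sets 6.89% rose and 4.36% fell. In KO 2 of the 34 rose, of Psma5 and Psmb4, and none fell, with a median of 0.19; of all probe sets 3.39% rose and 3.87% fell. Between the genotypes at day 2 their median was 0.03, with 1 lower, of Psmd4, and none higher; of all probe sets 4.78% were lower and 3.08% higher.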

How the data were processed

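Liver RNA was measured on Affymetrix arrays in 12 samples. The deposited values are MAS5 signal intensities on a linear scale, per the submitters' processing notes; the version is not given in the sources used here. Probe sets were named from GEO's platform annotation, in which 34945 of 45101 name 1 gene and 932 several. Each gene took the probe set with the highest mean log2(signal + 16), and was kept if above the array median on at least 2 of 12 arrays. Means of the 6 genotype-by-day groups were fitted with limma 3.58.1 (R 4.3.3; robust eBayes with a mean-variance trend; 6 residual degrees of freedom), with Benjamini-Hochberg adjustment over 14102 genes in each of 5 comparisons and calls at an adjusted p under 0.05; differences are on the log2(signal + 16) scale, which understates the change of faint genes. Day 1, with 1 pooled array per genotype, was not tested. The number of arrays limits the precision.

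Array values are given for up to 10 called proteasome genes per comparison, by size of change, and for a set list (Psma5, Psmb5 to Psmb10, Psmc1, Psmd4, Psmd14, Psme1 and the Psme2 probe set); the 3 highest and 3 lowest changes of each comparison are named. The proteasome genes and all lists were chosen with earlier results of these data known. The fit was tested on simulated data, in which most planted 2-fold changes were missed in every comparison but KO against WT at day 2. Alternatives were other normalizations, filters, thresholds, probe set rules, limma settings, a replicate block and leaving out each array. Promoters came from RefSeq (GRCm38.p6). No protein sequences were used here.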

Additional observations from a re-analysis of the deposited data

Results flagged for a closer look

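Among the proteasome genes and the tested genes of assembly, substrate delivery, regulation and antigen processing, 7 had a change from day 0 to day 2 that differed between the genotypes by limma's test of that difference (KO change minus WT change, log2). Among the proteasome subunits these were Psme3 (-1.99, adjusted p = 0.0352), Psmb7 (-1.63, adjusted p = 0.0058), Psmc3 (-0.98, adjusted p = 0.0217), Psmb4 (-0.85, adjusted p = 0.0475) and Psmc5 (-0.69, adjusted p = 0.0464). Uchl5, the proteasome-bound deubiquitinase, differed by -1.25 (adjusted p = 0.0217) and B2m, the light chain of MHC class I, by -0.82 (adjusted p = 0.0221). After quantile normalization Psmb7, Psme3 and Uchl5 kept the call, and Psmb4, Psmc3, Psmc5 and B2m lost it.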

How the results depend on the processing

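In the order WT change, KO change, KO against WT at day 2 and difference between the changes, the median of the 41 genes was 0.578, 0.42, -0.047 and -0.123 after quantile normalization. With cyclic loess it was 0.556 in WT, -0.072 between genotypes at day 2 and -0.166 for the difference, and with arrays centred on their medians 0.828, -0.411 and -0.472. With the mean of all kept probe sets the WT median was 0.605, 22 of the 28 WT calls were kept, and Psmd13 turned to -0.107. Psma3 (0.122), Psmc1 (0.354), Psmc6 (0.414), Psmd2 (0.308) and Psmd11 (0.448) also lost their WT calls, with adjusted p from 0.175 to 0.84. In KO Psmc2 and Psmd7 lost theirs. Between the genotypes at day 2 Psma3 (-0.078, adjusted p = 0.882) and Psmb4 lost theirs. The day 1 medians were 0.505 in WT and 0.507 in KO after quantile normalization, and 0.689 in KO after centring. The number that rose in KO was 17 with quantile or loess normalization, 3 with centring, 2 without trend and robust, 4 with array weights, 3 with only the arrays compared and 1 at an adjusted p under 0.01. Of all genes 4.74%, 4.41%, 2.93%, 2.92%, 2.73%, 2.73% and 1.83% rose, in that order of settings. The number lower in KO at day 2 was 3 with quantile normalization, 12 with centring, 10 with array weights, 10 with only the arrays compared, 2 at 0.01 and 12 at 0.10. Of all genes 3.86%, 9.69%, 7.23%, 6.93%, 1.52% and 8.79% were lower, in that order. The number with a lower change in KO was 2 with quantile or loess normalization, 2 without a filter, 1 without trend and robust, 3 with array weights and 1 at 0.01. Of all genes 1.13%, 1.32%, 1.06%, 0.291%, 1.55% and 0.206% had a lower change, in that order. The cause was not tested. Without single arrays, the median ran from -0.025 to 0.125 between genotypes at day 0 and from -0.425 to -0.178 for the difference between the changes; the genes lower there numbered 1 to 5, those lower in KO at day 2 from 2 to 5, those that rose in KO from 4 to 11 and those that fell in KO from 1 to 2. With the replicate number as a block, 2 genes had a lower change in KO. Deviations from the group means correlated at -0.024 to 0.034 between same-numbered arrays and at -0.058 to 0.037 between others. In groups of 2 arrays these deviations mirror each other, so the correlations cannot show whether same-numbered arrays share more than a number. Over single genes and alternatives, 1387 values stayed on their side of the threshold, 199 lost a call, 20 gained one and 1 called value reversed. Changes of direction in genes that were not called were not counted.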
